A study of Mus musculus with 16 samples.

Results

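The transcriptional effect of laminin-332 (LN332) was measured over 2 keratinocyte lines that differ in integrin α3, as the difference between all 8 LN332-treated libraries and all 8 vehicle-treated libraries, which together are all 16 libraries of the series. The MKα3− line is an immortalized keratinocyte line from mice deficient in integrin α3, and the MKα3+ line was made from it by reconstitution with human α3. Both lines were grown in low-calcium medium on collagen-coated dishes and given recombinant full-length human LN332 at 0.02 mg/mL, or an equal volume of its vehicle, for 16 to 24 h. There were 4 replicates (T1 to T4) of each of the 4 groups, namely vehicle-treated and LN332-treated MKα3− cells and vehicle-treated and LN332-treated MKα3+ cells. Poly(A) RNA was sequenced and the authors deposited raw counts per gene. The question asked here is which genes respond to LN332 on average over both lines, so that cell line and T number entered the model as blocks. Each line is a single immortalized line, and the labels do not say whether replicates came from separate cultures, so the p-values measure only the spread between these samples.

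LN332 is a heterotrimer of laminin chains and the main adhesive ligand of the epidermal basement membrane. Basal keratinocytes bind it through integrin α3β1, which signals through focal adhesion kinase and Src to small GTPases and the actin cytoskeleton, and through integrin α6β4, which anchors hemidesmosomes. Actin tension favours entry of the cofactors YAP and MRTF into the nucleus, where they act with TEAD factors and with SRF. Matrix and growth factor signals can also raise translation of ATF4, the activator of amino acid synthesis and transport genes, and processing of SREBP2, the activator of cholesterol synthesis genes.

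Libraries held 21735708 to 29338370 counts each (median 27036993). In all 8 libraries labelled MKα3− mouse *Itga3* was read at 211 to 317 CPM (TMM-normalized counts relative to library size), beside 211 to 314 CPM in those labelled MKα3+, so its level does not separate the lines and does not check their labels. Which exons the deficiency affects and how many reads of human α3 aligned to the mouse gene were not tested. All 12 keratinocyte markers were measured (1 of them, *Sfn*, called higher), and their summed level was 10951 to 17435 CPM with vehicle and 11699 to 23392 CPM with LN332. Markers of other cell types summed to far less than the keratinocyte markers, and of these the leukocyte sum varied most between libraries. Summed levels with vehicle and with LN332 were 23.7 to 54.1 and 30.1 to 59.9 CPM for 6 fibroblast markers, 80.5 to 466 and 80.7 to 471 CPM for 8 leukocyte markers (1 of them, *Cd68*, called lower), and 4.49 to 11.5 and 6.59 to 10.6 CPM for 6 endothelial markers. Of 7 melanocyte markers only *Pmel* and *Mitf* were in the table. The composition of the libraries moved with treatment. The 50 most abundant genes took 12.7% ± 0.524 (SD, n = 8) of the counts with LN332 and 11.2% ± 0.200 (SD, n = 8) with vehicle, higher with LN332 in 8 of 8 pairs of the same line and T number (exact sign-flip permutation test, two-sided, p = 0.00781, the smallest that 8 pairs allow, and 0.0469 after Benjamini-Hochberg adjustment over 6 library measures). The TMM factor was 0.974 ± 0.0293 (SD, n = 8) with LN332 and 1.03 ± 0.0174 (SD, n = 8) with vehicle, lower in 7 of 8 pairs (exact p = 0.0156, adjusted p = 0.0469).

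LN332 changed 373 of 14474 genes (2.58%) at an adjusted p under 0.05 (limma-voom, Benjamini-Hochberg) and an absolute log2 fold change (log2 change) over 0.5. Of these, 234 genes (1.62%) were higher and 139 genes (0.96%) were lower with LN332, and a gene is called higher or lower below by this rule. The changes were small, since with a minimum log2 fold change of 1 only 26 genes remained, 22 higher and 4 lower. The genes called higher were at a median level of 19.0 CPM and those called lower at 4.25 CPM, beside 27.4 CPM over all genes. All 8 pairs moved in a single direction for 187 of the genes called higher and 99 of those called lower, beside 2160 (14.9%) of all genes. The split depended on scaling. Without TMM factors, scaled by library size alone, 433 genes were called, of which 146 were higher and 287 lower, and the median log2 fold change of all genes moved from -0.0025 to -0.079. Counts in bulk RNA are relative to the RNA of a library, so a change in a gene's RNA per cell and a change in the share of cells that express it cannot be told apart, and the part of library composition in the split was not tested.

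**Figure D1:**
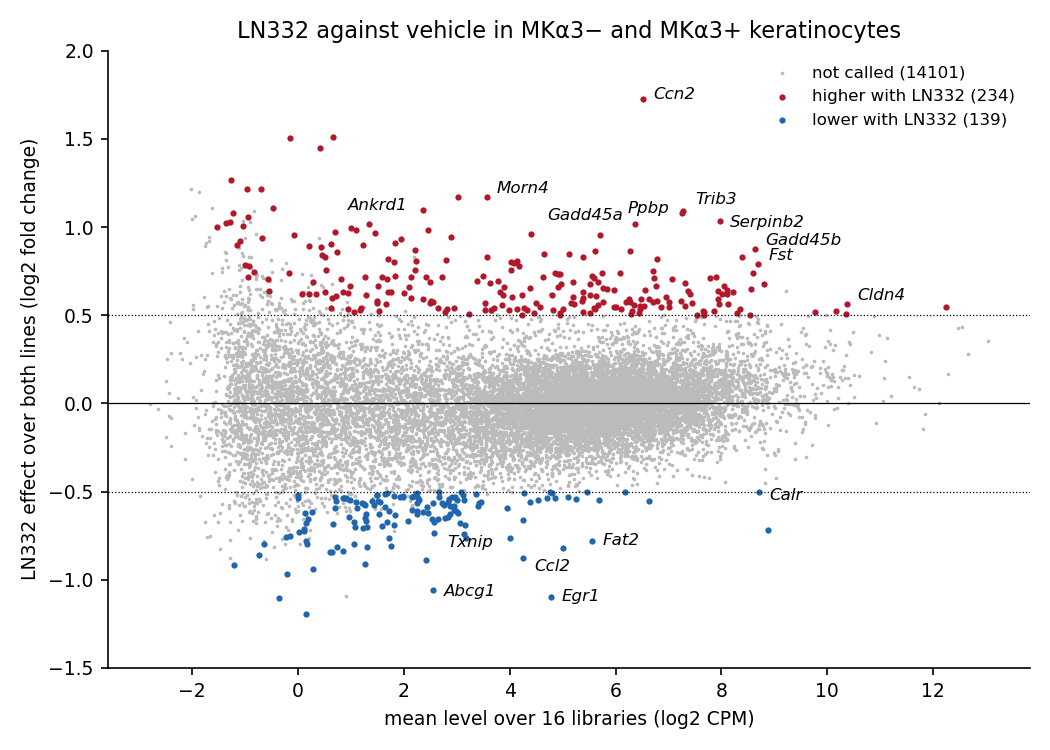
The LN332 effect over both lines (log2 fold change, y axis) against the mean level over 16 libraries (log2 CPM, x axis), a point for each of 14474 genes. Red points are the 234 genes called higher and blue points the 139 called lower, with dotted lines at log2 fold changes of 0.5 and -0.5, and *Ccn2* stands highest at 1.73.

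Among the 32 lists of a pathway or function, the share of called members was highest for the targets of ATF4 and amino acid stress (10 of 27, 37.0%) and the targets of YAP and TEAD (9 of 26, 34.6%). The lists were chosen with earlier results of these data known, so their shares and ranks describe these data and are no independent evidence. Of the 26 measured YAP-TEAD targets, all 9 called genes were higher, beside 1.62% of all genes called higher, and the median log2 fold change was 0.39 beside -0.0025 over all genes. The 9 genes were *Ccn2*, *Ankrd1*, *Gadd45a*, *Gadd45b*, *Ccn1*, *F3*, *Amotl2*, *Dlc1* and *Nt5e*. Of all genes 7.26% had an adjusted p under 0.05 with a positive change of any size and 6.97% with a negative change. A further 5 members had an adjusted p under 0.05 with a smaller positive change (*Igfbp3*, *Lats2*, *Wwc1*, *Ajuba* and *Asap1*, log2 fold changes of 0.24 to 0.40). Among members not called, *Axl* was at -0.08 (SE 0.06), *Myof* at -0.01 (SE 0.06) and *Ptpn14* at 0.06 (SE 0.08) on the log2 scale.

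*Ccn2* (chromosome 10, 24595442 to 24598683 in mm10), which encodes the matricellular protein CCN2 or connective tissue growth factor, had the largest fold change among genes that averaged at least 1 on the log2 CPM scale. In MKα3− cells *Ccn2* was at 35.2, 26.7, 27.6 and 44.0 CPM with vehicle and at 112, 102, 164 and 160.0 CPM with LN332 in replicates 1 to 4. In MKα3+ cells *Ccn2* was at 82.2, 79.1, 84.6 and 64.3 CPM with vehicle and at 298, 139.6, 252 and 190.0 CPM with LN332 in replicates 1 to 4. Every LN332 library lay above every vehicle library of the same line, and the increase over both lines was 3.31-fold, a log2 change of 1.73 (adjusted p = 7.31e-06, SE 0.15). Its exons overlap Gm15270 on the opposite strand. *Ankrd1* (chromosome 19, 36111965 to 36119844) encodes an ankyrin repeat protein of stretched muscle and a reference YAP target. In MKα3− cells *Ankrd1* was at 2.70, 0.441, 0.744 and 1.38 CPM with vehicle and at 4.35, 0.883, 1.04 and 3.57 CPM with LN332 in replicates 1 to 4. In MKα3+ cells *Ankrd1* was at 10.8, 11.1, 16.6 and 11.9 CPM with vehicle and at 27.5, 20.9, 32.7 and 26.0 CPM with LN332 in replicates 1 to 4. The MKα3+ groups did not overlap and the MKα3− groups overlapped at levels near 1 CPM. All 8 pairs were higher with LN332, which the rule that named *Ankrd1* required, with a log2 change of 1.10 (adjusted p = 0.00147, SE 0.19). In MKα3− libraries alone *Ankrd1* was not called.

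*Gadd45a* (chromosome 6, 67035096 to 67037407) and *Gadd45b* (chromosome 10, 80930091 to 80932204) encode stress sensors that bind p38 and JNK pathway kinases. In MKα3− cells *Gadd45a* was at 51.0, 53.2, 44.0 and 58.5 CPM with vehicle and at 89.4, 115, 86.9 and 177 CPM with LN332 in replicates 1 to 4. In MKα3+ cells *Gadd45a* was at 87.4, 71.6, 52.6 and 55.3 CPM with vehicle and at 144, 145, 92.8 and 117 CPM with LN332 in replicates 1 to 4. The groups did not overlap in either line, and the log2 change of 1.02 (adjusted p = 1.07e-04, SE 0.12) corresponded to a 2.03-fold increase. *Gadd45b* ranged over 183 to 337 CPM with vehicle and 428 to 718 CPM with LN332 in MKα3− cells, and over 291 to 336 and 539 to 552 CPM in MKα3+ cells, again with no overlap, with a log2 change of 0.87 (adjusted p = 9.35e-05, SE 0.10). *Amotl2*, a junctional inhibitor of YAP that is itself a YAP target, rose with a log2 change of 0.72 (adjusted p = 9.08e-05, SE 0.08) and no overlap in either line. *Ccn1*, which encodes the integrin ligand CYR61, had a log2 change of 0.83 (adjusted p = 0.00101, SE 0.14).

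Promoter sequence was read from the RefSeq table of GRCm38.p6 (mm10) for the 7 of these 9 genes that it holds, as 250 bases before and 50 after the start site, and searched on both strands for the TEAD core GGAATG. It was found for *Ankrd1*, *Ccn1* and *Amotl2* and not for *Gadd45a*, *Gadd45b*, *F3* and *Nt5e*, while 14.67% of 10903 tested genes in the table, 20.13% of 159 genes called higher and 15.74% of 108 called lower hold it in any of their windows. The 3 stretches below lie before the start site that the table gives and are shown because they put the searched letters, in capitals, beside genes that rose in all 8 pairs. The first *Ankrd1* match begins 210 bases before the start site and the other 123 bases before it, the *Ccn1* match 103 bases and the *Amotl2* match 65 bases before it. For *Amotl2* that start site lies 713 bases inside the annotated extent of the gene, so the stretch is upstream of an internal start. A match of 6 letters is a description of the sequence and not a bound site.
Ankrd1, chr19:36119959-36120058, minus strand: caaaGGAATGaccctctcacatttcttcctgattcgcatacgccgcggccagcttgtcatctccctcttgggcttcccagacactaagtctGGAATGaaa
Ccn1, chr3:145650036-145650135, minus strand: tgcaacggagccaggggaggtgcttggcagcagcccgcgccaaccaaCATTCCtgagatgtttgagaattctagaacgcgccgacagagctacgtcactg
Amotl2, chr9:102717692-102717791, plus strand: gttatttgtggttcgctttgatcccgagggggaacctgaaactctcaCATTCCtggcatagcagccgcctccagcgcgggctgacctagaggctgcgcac

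Genes of the actin cytoskeleton had smaller changes. Of 33 SRF-MRTF targets and contractile actin genes, 4 (12.1%) were called higher and 0 lower (*Dbn1*, *Fhl1*, *Pdlim7* and *Zyx*), beside 2.58% of all genes called. However, 18 of the 33 had an adjusted p under 0.05 with a positive change and 0 with a negative change, and the median was 0.33. *Actb* and *Actg1*, the cytoplasmic actins, were at 0.43 (SE 0.07) and 0.41 (SE 0.13), *Tpm1* and *Tpm4*, tropomyosins, at 0.43 (SE 0.06) and 0.45 (SE 0.08), and *Myh9*, nonmuscle myosin heavy chain, at 0.33 (SE 0.06). *Dbn1* (chromosome 13, 55473428 to 55488126) encodes drebrin, an actin-bundling protein. In MKα3− cells *Dbn1* was at 5.51, 5.09, 4.0 and 8.70 CPM with vehicle and at 7.95, 14.0, 6.57 and 15.8 CPM with LN332 in replicates 1 to 4. In MKα3+ cells *Dbn1* was at 53.4, 34.0, 42.1 and 38.7 CPM with vehicle and at 80.9, 82.9, 81.6 and 84.5 CPM with LN332 in replicates 1 to 4. All 8 pairs were higher, with no overlap between the MKα3+ groups and overlap between the MKα3− groups, and a log2 change of 0.96 (adjusted p = 4.20e-04, SE 0.14). *Fhl1*, a LIM-domain protein, had a log2 fold change of 0.72 (SE 0.17) that rested on MKα3+ cells (0.15 in MKα3− cells and 0.98 in MKα3+ cells) and was higher in 6 of 8 pairs. *Pdlim7* and *Zyx*, a scaffold and the focal adhesion protein zyxin, stood at the edge of the minimum fold, at 0.50 (SE 0.08) and 0.50 (SE 0.11), and neither was called with library size alone.

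Of 17 Cdc42 effector and small GTPase genes, 2 (11.8%) were called higher and 0 lower, with a median of 0.15. *Cdc42ep3* (chromosome 17, 79333723 to 79355091), which encodes a Borg protein that links Cdc42 to septins and actin, ranged over 9.0 to 13.4 CPM with vehicle and 16.2 to 31.9 CPM with LN332 in MKα3− cells, and over 27.3 to 35.1 and 51.8 to 64.3 CPM in MKα3+ cells. Neither line had overlap between its groups, and the log2 change of 0.85 (adjusted p = 2.03e-04, SE 0.11) was higher in all 8 pairs. *Arhgap29*, a RhoA-directed GTPase-activating protein, rose with a log2 change of 0.72 (adjusted p = 9.35e-05, SE 0.08). Of 26 focal adhesion and Cas-FAK-Src genes only *Nedd9*, a Cas-family scaffold, was called (0.53 (SE 0.08), adjusted p = 3.86e-04), and the median was 0.0072, so that 3.85% of the list was called beside 2.58% of all genes. *Nedd9* was not called with library size alone, and its log2 fold change fell to 0.47 or 0.49, short of the minimum, without MKα3+ LN332 replicate 1 or MKα3+ vehicle replicate 4. Of 7 caveolar genes *Cavin3* alone (14.3%) was called, with 73.2 to 103 CPM with vehicle and 136 to 188 CPM with LN332 in MKα3+ cells and at most 4.50 CPM in an MKα3− library, and a log2 change of 0.80 (adjusted p = 6.10e-05, SE 0.09). In MKα3− libraries alone it was not called (0.51), the groups overlapped and 1 of 4 pairs was lower.

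**Figure D2:**
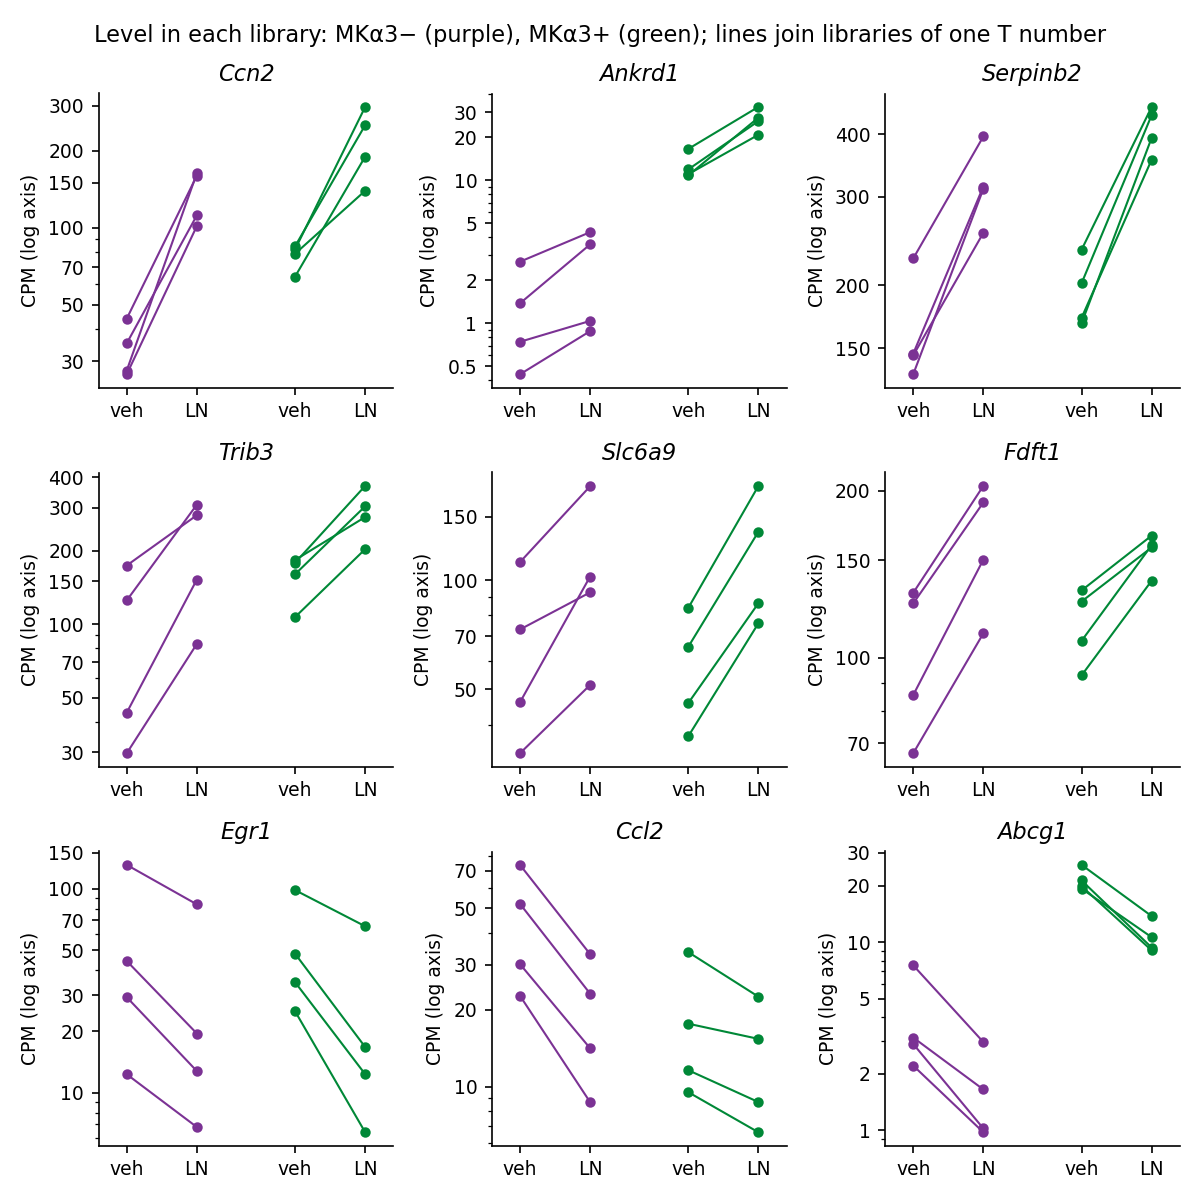
Level of 9 genes in each of the 16 libraries (CPM, log axis), with vehicle (veh) and LN332 (LN) libraries of the same line and T number joined by a line. Every line for *Ccn2*, *Ankrd1*, *Serpinb2*, *Trib3*, *Slc6a9* and *Fdft1* goes up and every line for *Egr1*, *Ccl2* and *Abcg1* goes down, in MKα3− (purple) and MKα3+ (green) cells.

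The genes of the ligand and of its receptors were not called over both lines. All 9 LN332 chain and hemidesmosome genes were measured, 0 had an adjusted p under 0.05, and their median log2 fold change was 0.04. *Lama3* and *Lamb3*, which encode mouse chains of LN332, were at 0.23 (SE 0.09) and 0.11 (SE 0.08). Mouse *Itga3* had a log2 fold change of 0.09 (SE 0.10) and *Itgb1*, its partner, at 0.18 (SE 0.08). *Itga6* and *Itgb4* were at -0.14 (SE 0.10) and -0.04 (SE 0.11). In MKα3+ libraries alone *Itgb1* at 0.28 (SE 0.04) and *Lama3* at 0.20 (SE 0.03) had an adjusted p under 0.05, short of the minimum fold. *Lamb3*, *Itga3*, *Itga6* and *Itgb4* did not, nor did any of these genes in MKα3− libraries alone. Of 16 integrin subunit genes apart from *Itga6* and *Itgb4*, with *Itga3* and *Itgb1* among them, only *Itga2* was called. *Itga2* (chromosome 13, 114833081 to 114932100) encodes the α2 subunit of the collagen receptor α2β1. In MKα3− cells *Itga2* was at 2.63, 2.37, 2.94 and 8.67 CPM with vehicle and at 3.69, 4.41, 8.79 and 12.7 CPM with LN332 in replicates 1 to 4. In MKα3+ cells *Itga2* was at 7.68, 5.73, 9.36 and 11.4 CPM with vehicle and at 16.3, 7.55, 18.5 and 26.5 CPM with LN332 in replicates 1 to 4. All 8 pairs were higher with LN332 although the groups overlapped in both lines, and the log2 change of 0.94 (adjusted p = 6.89e-04, SE 0.15) was a 1.92-fold increase that was not called without the T number as a block. *Itgb3* was at 0.70 (SE 0.34) and was not called.

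Of 13 plasminogen activation and coagulation genes, 3 (23.1%) were called higher and 0 lower, beside 2.58% of all genes called. The median was 0.22. *Plaur*, *Plau*, *Thbd* and *Procr* had an adjusted p under 0.05 at 0.49 (SE 0.08), 0.35 (SE 0.11), 0.44 (SE 0.10) and 0.20 (SE 0.06). *Plat*, tissue plasminogen activator, had an adjusted p under 0.05 with a negative change, at -0.31 (SE 0.10). *Serpinb2* (chromosome 1, 107500892 to 107525600) encodes plasminogen activator inhibitor 2. In MKα3− cells *Serpinb2* was at 145, 146, 133 and 226 CPM with vehicle and at 255, 315, 311 and 396 CPM with LN332 in replicates 1 to 4. In MKα3+ cells *Serpinb2* was at 168, 172, 236 and 202 CPM with vehicle and at 394, 356, 453 and 437 CPM with LN332 in replicates 1 to 4. No vehicle library reached the LN332 libraries of its line, and *Serpinb2* rose 2.05-fold, with a log2 change of 1.03 (adjusted p = 7.31e-06, SE 0.08). *F3*, tissue factor, rose with a log2 change of 0.83 (adjusted p = 2.30e-04, SE 0.11) in all 8 pairs. Of 35 other matrix genes *Ccn4*, *Tnc* and *Col12a1* (8.57%) were called higher, at 0.85 (SE 0.15), 0.72 (SE 0.14) and 0.54 (SE 0.11). *Adamts1* was the single called gene of 16 matrix metalloproteinase and inhibitor genes, at 0.78 (SE 0.12). In MKα3+ cells it ranged over 24.2 to 91.2 CPM with vehicle and 67.8 to 146 CPM with LN332. In MKα3− cells it ranged over 2.07 to 4.11 and 3.69 to 6.29 CPM, and was not called in these libraries alone (0.41). The groups overlapped in both lines, and 7 of 8 pairs were higher.

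*F3* and *Serpinb2* hold the AP-1 letters TGANTCA in the promoter window, as do 6.81% of tested genes in the table, 17.61% of those called higher and 9.26% of those called lower. The stretches are shown because both genes belong to the same called list, with the matches in capitals. In *F3* the 2 matches begin 146 and 135 bases before the start site, and in *Serpinb2* the match begins 94 bases before it. The *Serpinb2* start site used, the first of the 2 in the table, is at position 107511423, which lies 10531 bases inside the extent of the gene given above.
F3, chr3:121723350-121723449, plus strand: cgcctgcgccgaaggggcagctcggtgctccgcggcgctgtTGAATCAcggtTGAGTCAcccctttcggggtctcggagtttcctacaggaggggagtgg
Serpinb2, chr1:107511282-107511381, plus strand: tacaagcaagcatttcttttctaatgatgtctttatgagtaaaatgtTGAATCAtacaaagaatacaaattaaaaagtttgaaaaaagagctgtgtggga

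All 27 listed genes of ATF4 and amino acid metabolism were measured, 10 rose and 0 fell, 22 had an adjusted p under 0.05 with a positive change, and the lowest log2 fold change in the list was 0.095. The median was 0.39, at 0.35 in MKα3− cells and 0.46 in MKα3+ cells. The 10 genes were *Trib3*, *Stc2*, *Slc6a9*, *Chac1*, *Mthfd2*, *Vldlr*, *Atf5*, *Psph*, *Asns* and *Sesn2*. *Atf4* itself, which was placed in the list of the unfolded protein response, was at 134 to 370.2 CPM with vehicle and 215 to 795 CPM with LN332 in MKα3− cells, and at 344 to 393 and 531 to 631 CPM in MKα3+ cells. The MKα3− groups overlapped and the MKα3+ groups did not, and the log2 change of 0.74 (adjusted p = 0.0056, SE 0.16) was higher in all 8 pairs.

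*Trib3* (chromosome 2, 152337425 to 152344060), a pseudokinase that restrains ATF4 and AKT, varied between T numbers more than it did with treatment in MKα3− cells. In MKα3− cells *Trib3* was at 29.7, 174, 43.5 and 125 CPM with vehicle and at 83.1, 279, 152 and 308 CPM with LN332 in replicates 1 to 4. In MKα3+ cells *Trib3* was at 183, 178, 107 and 160.1 CPM with vehicle and at 274, 368, 203 and 304 CPM with LN332 in replicates 1 to 4. All 8 pairs were higher with LN332, which the rule that named *Trib3* required. The increase was 2.13-fold over both lines, with a log2 change of 1.09 (adjusted p = 0.00443, SE 0.23). *Slc6a9* (chromosome 4, 117835258 to 117869305) encodes the glycine transporter GlyT1. In MKα3− cells *Slc6a9* was at 33.3, 112, 46.1 and 73.2 CPM with vehicle and at 51.4, 182, 102 and 92.6 CPM with LN332 in replicates 1 to 4. In MKα3+ cells *Slc6a9* was at 37.1, 84.0, 45.9 and 65.6 CPM with vehicle and at 76.2, 182, 86.5 and 136 CPM with LN332 in replicates 1 to 4. The groups overlapped in both lines while all 8 pairs rose, with a log2 change of 0.87 (adjusted p = 7.04e-05, SE 0.10). *Mthfd2* of mitochondrial one-carbon metabolism, *Psph* of serine synthesis and *Asns*, asparagine synthetase, were at 0.71 (SE 0.12), 0.57 (SE 0.07) and 0.56 (SE 0.08). In MKα3− cells *Stc2* averaged only 0.173 CPM with vehicle and 0.180 CPM with LN332. Its 4 paired differences there went both ways, from -2.43 to 4.43 on the log2 scale, with few reads behind each. The *Stc2* call over both lines (1.06 (SE 0.34), adjusted p = 0.0472) rested on MKα3+ cells. Without the T number as a block *Trib3*, *Slc6a9*, *Mthfd2* and *Atf4* were not called.

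The composite ATF4-C/EBP letters TGATGNAA were found on either strand in the promoter window of *Trib3*, *Chac1*, *Vldlr* and *Asns* among these 10 genes, all of which are in the table, and in 2.79% of all tested genes, 10.06% of those called higher and 1.85% of those called lower. The *Chac1* and *Asns* stretches are shown because their matches lie before the start site, by 193 and 23 bases, while the *Trib3* match lies after it. No stretch shown here holds another of the 3 searched motifs.
Chac1, chr2:119351003-119351102, plus strand: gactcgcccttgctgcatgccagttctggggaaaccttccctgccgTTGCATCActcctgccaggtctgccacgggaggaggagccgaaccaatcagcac
Asns, chr6:7693210-7693309, minus strand: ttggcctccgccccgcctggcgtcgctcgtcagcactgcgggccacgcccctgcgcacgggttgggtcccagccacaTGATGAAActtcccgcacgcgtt

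All 25 cholesterol synthesis and uptake genes were measured, and 6 (24%, beside 2.58% of all genes) were called higher and 0 lower. Of the 25, 16 had an adjusted p under 0.05 with a positive change. The median was 0.40, the highest of the 32 lists of a pathway or function, close to YAP-TEAD and ATF4 (both 0.39). It was 0.47 in MKα3− cells and 0.37 in MKα3+ cells, where the ATF4 (0.46), SRF-MRTF (0.41) and YAP-TEAD (0.40) lists were higher. The called genes were *Pmvk*, *Hsd17b7*, *Fdft1*, *Fdps*, *Cyp51* and *Msmo1*, which encode enzymes from mevalonate to sterols, at 0.50 to 0.64. *Fdft1*, squalene synthase, was at 67.2 to 131 CPM with vehicle and 111 to 204 CPM with LN332 in MKα3− cells and at 92.9 to 132 and 138 to 166 CPM in MKα3+ cells, with a log2 change of 0.57 (adjusted p = 0.00102, SE 0.09). *Hmgcs1*, *Sqle* and *Lss* had smaller changes of 0.46 (SE 0.10), 0.48 (SE 0.08) and 0.49 (SE 0.11), all with an adjusted p under 0.05. *Srebf2*, which encodes SREBP2, was at 0.00 (SE 0.07) and did not pass the threshold. *Abcg1* (chromosome 17, 31057694 to 31117984), a cholesterol exporter outside this list, went the other way and had the second lowest log2 fold change among called genes that averaged at least 1 on the log2 CPM scale and were lower in all 8 pairs. In MKα3− cells *Abcg1* was at 7.54, 2.88, 3.12 and 2.21 CPM with vehicle and at 2.95, 1.02, 1.65 and 0.978 CPM with LN332 in replicates 1 to 4. In MKα3+ cells *Abcg1* was at 25.8, 19.9, 21.3 and 19.3 CPM with vehicle and at 13.8, 9.05, 9.38 and 10.6 CPM with LN332 in replicates 1 to 4. It fell 2.08-fold over both lines, in all 8 pairs and with no overlap in MKα3+ cells, a log2 change of -1.06 (adjusted p = 1.17e-04, SE 0.13).

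**Figure D3:**
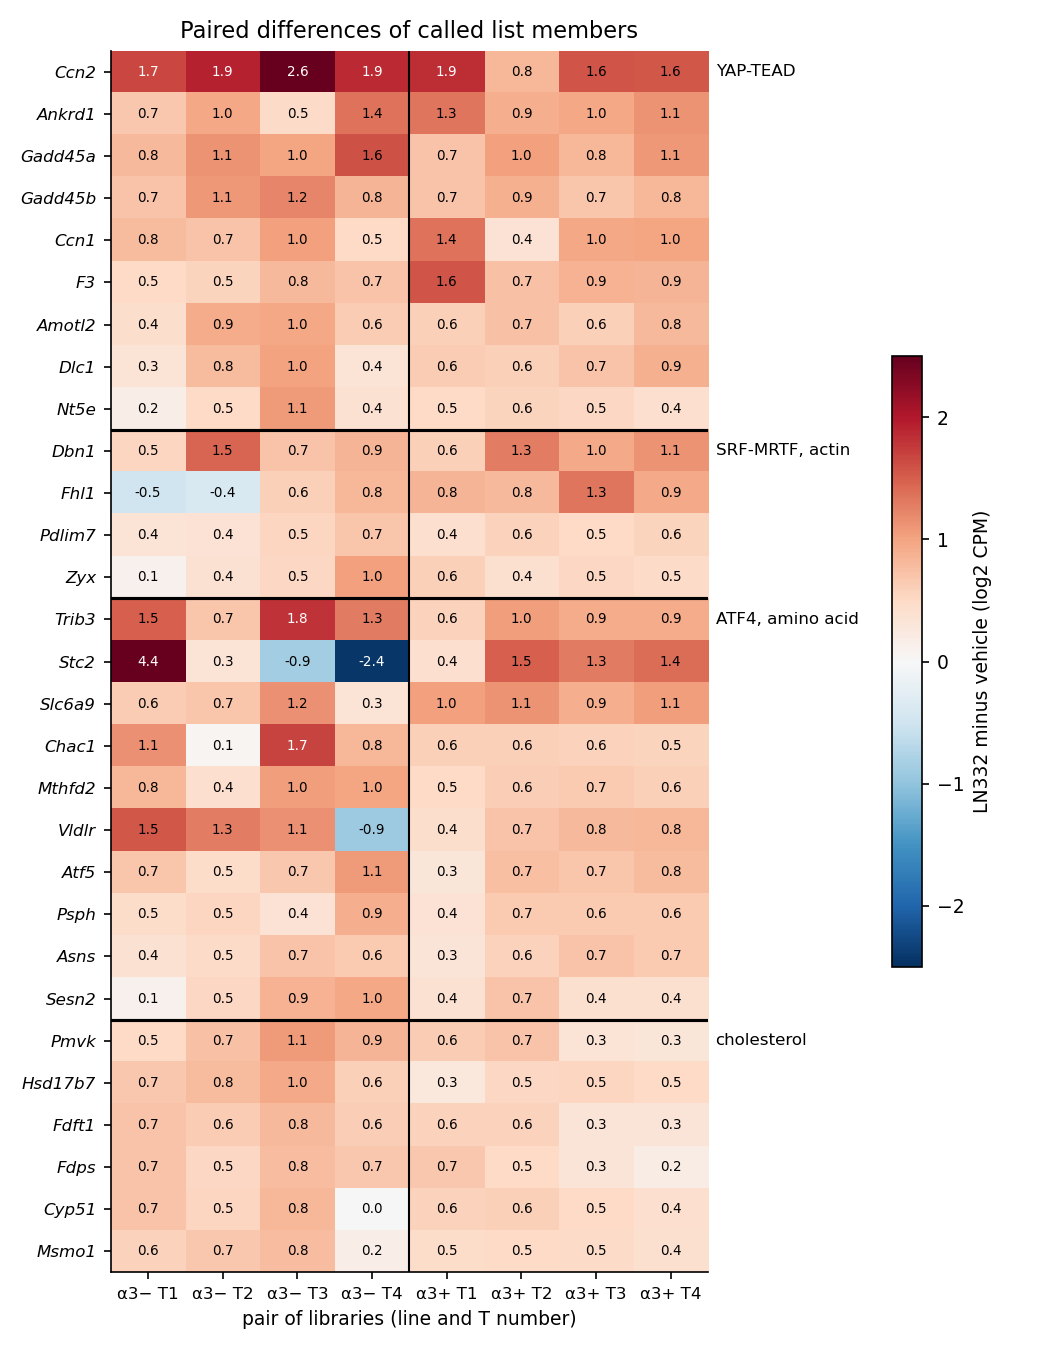
Difference between the LN332 and the vehicle library of each pair (log2 CPM, color and printed value) for the 29 called members of 4 lists, in 4 pairs of MKα3− cells (α3−) and 4 pairs of MKα3+ cells (α3+). Of the 232 differences, 227 are above 0. The largest departures in both directions, from -2.43 to 4.43, belong to *Stc2* in MKα3− cells, where it averaged 0.173 CPM with vehicle and 0.180 CPM with LN332.

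Epithelial structure and identity genes were called higher in small numbers. Of 13 keratins, *Krt80* and *Krt16* (15.4%, beside 2.58% of all genes) were called, at 0.64 (SE 0.08) and 0.55 (SE 0.10). An adjusted p under 0.05 was reached by 7 with a positive change and 0 with a negative change. The median was 0.34, and the log2 fold changes ran from -0.59 to 0.64. *Krt8*, *Krt14* and *Krt17* were at 0.50 (SE 0.06), 0.43 (SE 0.07) and 0.34 (SE 0.07), and the basal keratin *Krt5* at -0.06 (SE 0.10). *Krt16* shares near-identical stretches with *Krt14* and *Krt17*, so reads could have been divided among them. Of 28 junction genes, 3 (10.7%) were called higher and 0 lower, among them the claudins *Cldn4* and *Cldn23* at 0.56 (SE 0.08) and 0.52 (SE 0.11). Of the 28, 14 had an adjusted p under 0.05 with a positive change and 0 with a negative change. *Muc16*, a membrane mucin of wet epithelia, and *Cdsn*, corneodesmosin, were the 2 called members (11.8%) of 17 measured terminal differentiation genes. *Muc16* reached at most 4.94 CPM in a library and had a log2 change of 1.02 (adjusted p = 1.17e-04, SE 0.13), and *Ivl* and *Tgm1* were at 0.07 (SE 0.18) and 0.19 (SE 0.13).

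Of 10 SoxC and basal identity factors, *Sox11*, *Sox9* and *Sox4* (30%, beside 2.58% of all genes) were called higher and 0 lower. *Sox9* had a log2 change of 0.71 (adjusted p = 3.89e-04, SE 0.10) with no overlap in either line. *Sox11* was at 35.5 to 42.9 CPM with vehicle and 59.1 to 75.8 CPM with LN332 in MKα3+ cells, and at 0.673 to 1.11 and 0.467 to 1.40 CPM in MKα3− cells, where it was not called alone, and its log2 fold change over both lines was 0.72 (SE 0.08). Within the lines it was 0.33 in MKα3− cells and 0.74 in MKα3+ cells. With a coefficient for each group, which weighs both lines equally, *Sox11* was not called. *Trp63*, the basal regulator p63, had an adjusted p under 0.05 and a log2 fold change of -0.43 (SE 0.10), short of the minimum fold. In the list of epithelial-mesenchymal transition factors, 2 of 14 (14.3%) were called higher. Both, *Ovol1* at 0.62 (SE 0.10) and *Grhl3* at 0.61 (SE 0.10), are known as epithelial factors. *Vim*, *Snai1*, *Snai2* and *Twist1* were between 0.03 and 0.13 and were not called.

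Growth factor and immediate-early genes did not move in a single direction. Of 27 TGF-β and BMP genes, 3 (11.1%, beside 2.58% of all genes) were called higher and 0 lower, with a median of -0.0023. These were *Inhba*, the activin A subunit, at 0.95 (SE 0.20), its extracellular antagonist *Fst*, follistatin, and *Pmepa1*, at 0.64 (SE 0.14). *Pmepa1* was at 0.97 (SE 0.09) in MKα3− cells and 0.31 (SE 0.06) in MKα3+ cells. It was not called in MKα3+ libraries alone or with sample quality weights. *Fst* (chromosome 13, 114452262 to 114458989) ranged over 381 to 640.4 CPM with vehicle and 673 to 1156 CPM with LN332 in MKα3− cells, and over 134 to 234 and 301 to 408 CPM in MKα3+ cells, with a log2 change of 0.79 (adjusted p = 6.20e-05, SE 0.09). *Id1* and *Id3*, BMP targets, had an adjusted p under 0.05 at -0.30 (SE 0.08) and -0.35 (SE 0.08). Of 19 AP-1 and immediate-early genes (21.1% called), *Klf6*, *Atf3* and *Myc* were called higher, at 0.56 (SE 0.06), 0.52 (SE 0.07) and 0.52 (SE 0.07), and *Egr1* was called lower. *Fos*, *Fosl1* and *Junb* were at -0.01 (SE 0.14), 0.22 (SE 0.12) and 0.03 (SE 0.05).

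*Egr1*, a zinc finger factor induced by ERK signalling, had the lowest log2 fold change among called genes that averaged at least 1 on the log2 CPM scale and were lower in all 8 pairs. In MKα3− cells *Egr1* was at 131, 44.3, 29.4 and 12.3 CPM with vehicle and at 83.9, 19.5, 12.8 and 6.79 CPM with LN332 in replicates 1 to 4. In MKα3+ cells *Egr1* was at 98.5, 48.1, 34.9 and 25.1 CPM with vehicle and at 65.5, 16.8, 12.3 and 6.41 CPM with LN332 in replicates 1 to 4. The T1 libraries were the highest of every group and the groups overlapped in both lines. All 8 pairs were lower with LN332, as the ranking above required, a 2.14-fold decrease with a log2 change of -1.10 (adjusted p = 1.96e-04, SE 0.15). Without the T number as a block *Egr1* was not called. Of 18 ERK output and feedback genes only *Phlda1* was called, at 0.57 (SE 0.07), and *Dusp6* and *Spry4* were at -0.04 (SE 0.07) and -0.10 (SE 0.25). None of 11 EGF ligand and receptor genes was called, with *Areg* and *Ereg* at 0.40 (SE 0.08) and 0.33 (SE 0.09). Log2 fold changes in that list ran from -0.54 to 0.47. An adjusted p under 0.05 was reached by 2 members with a positive and 1 with a negative change.

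Of 23 chemokines and cytokines (17.4% called, beside 2.58% of all genes), *Tslp* and *Il1a* were called higher and *Cxcl10* and *Ccl2* lower. *Ccl2* (chromosome 11, 82035577 to 82037452) encodes a monocyte chemoattractant. In MKα3− cells *Ccl2* was at 73.9, 22.7, 52.0 and 30.2 CPM with vehicle and at 33.0, 8.69, 23.1 and 14.1 CPM with LN332 in replicates 1 to 4. In MKα3+ cells *Ccl2* was at 33.6, 9.50, 17.6 and 11.6 CPM with vehicle and at 22.5, 6.62, 15.4 and 8.69 CPM with LN332 in replicates 1 to 4. The level varied with the T number in the same order in all 4 groups. *Ccl2* was lower with LN332 in all 8 pairs, as the rule for the largest falls required. The decrease was 1.84-fold, a log2 change of -0.88 (adjusted p = 1.57e-04, SE 0.11), and was not called without the T number as a block. *Cxcl10*, an interferon-induced chemokine, was lower in 7 of 8 pairs with a log2 change of -0.82 (adjusted p = 0.00221, SE 0.15). *Il1a* was at 0.54 (SE 0.10) and *Tslp*, at most 2.14 CPM in a library, at 1.27 (SE 0.26). *Ppbp*, the chemokine CXCL7 outside this list, rose in all 8 pairs, which the rule that named it required. It ranged over 40.5 to 178 CPM with vehicle and 80.9 to 418 CPM with LN332 in MKα3− cells, and 78.8 to 201 and 228 to 468 CPM in MKα3+ cells, with a log2 change of 1.08 (adjusted p = 6.28e-04, SE 0.17). None of 29 interferon-stimulated genes was called, but 6 had an adjusted p under 0.05 with a negative change, among them *Ifit2* at -0.45 (SE 0.11) and *Gbp2* at -0.45 (SE 0.08). *Irf5* and *Tnfsf10*, an interferon regulatory factor and the death ligand TRAIL, were called lower at -0.81 (SE 0.18) and -0.81 (SE 0.12), and *Irf5* shares exon sequence with *Tnpo3* on the opposite strand.

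The endoplasmic reticulum list held calls in both directions, in 12% of its members beside 2.58% of all genes. Of 25 genes, *Atf4* and *Ppp1r15a*, the phosphatase subunit that reverses the block on translation, were called higher (0.74 (SE 0.16) and 0.53 (SE 0.08)) and *Calr*, the chaperone calreticulin, was called lower. *Calr* was at 374 to 569 CPM with vehicle and 278 to 374 CPM with LN332 in MKα3− cells, and at 424 to 639 and 342 to 417 CPM in MKα3+ cells, lower in all 8 pairs, and its log2 change of -0.50 (adjusted p = 4.57e-04, SE 0.07) lay at the edge of the minimum fold. A further 6 members had an adjusted p under 0.05 with a negative change, among them *Hsp90b1* at -0.38 (SE 0.12), *Pdia6* at -0.30 (SE 0.08) and *Sdf2l1* at -0.38 (SE 0.09). *Hspa5*, the chaperone BiP, was at -0.28 (SE 0.09), *Xbp1* at -0.05 (SE 0.07) and *Ddit3* at 0.27 (SE 0.17), and none of these passed. The median of the list was -0.17.

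Of 27 mitosis genes, 0 were called and 6 had an adjusted p under 0.05 with a negative change (beside 6.97% of all genes), such as *Ccnb2* at -0.28 (SE 0.06) and *Cdc20* at -0.27 (SE 0.08), with a median of -0.16. Of 30 DNA replication genes, 0 were called and the median was -0.034. Likewise 0 of 16 p53 targets, 15 heat shock genes, 18 oxidative stress genes and 20 nucleolar genes were called, with medians of 0.12, -0.0023, 0.060 and 0.10. With 2.58% of all genes called, 0 calls in lists of this size, that of LN332 chains and hemidesmosomes included, is near the background and not a result about their members. A single call is likewise no result about its list, as for *Ndrg1* (3.70% of its list), *Phlda1* (5.56%), *Itga2* (6.25%), *Adamts1* (6.25%) and *Dtx4* (6.67%). *Cdkn1a*, the p21 inhibitor of cyclin-dependent kinases, had an adjusted p under 0.05 at 0.37 (SE 0.08). *Ndrg1* was the called gene of 27 in glycolysis and the hypoxia response, at 0.71 (SE 0.15), and *Dtx4* that of 15 in the Notch pathway, at -0.68 (SE 0.10). Of the 373 called genes, 70 lie in any of the lists.

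**Figure D4:**
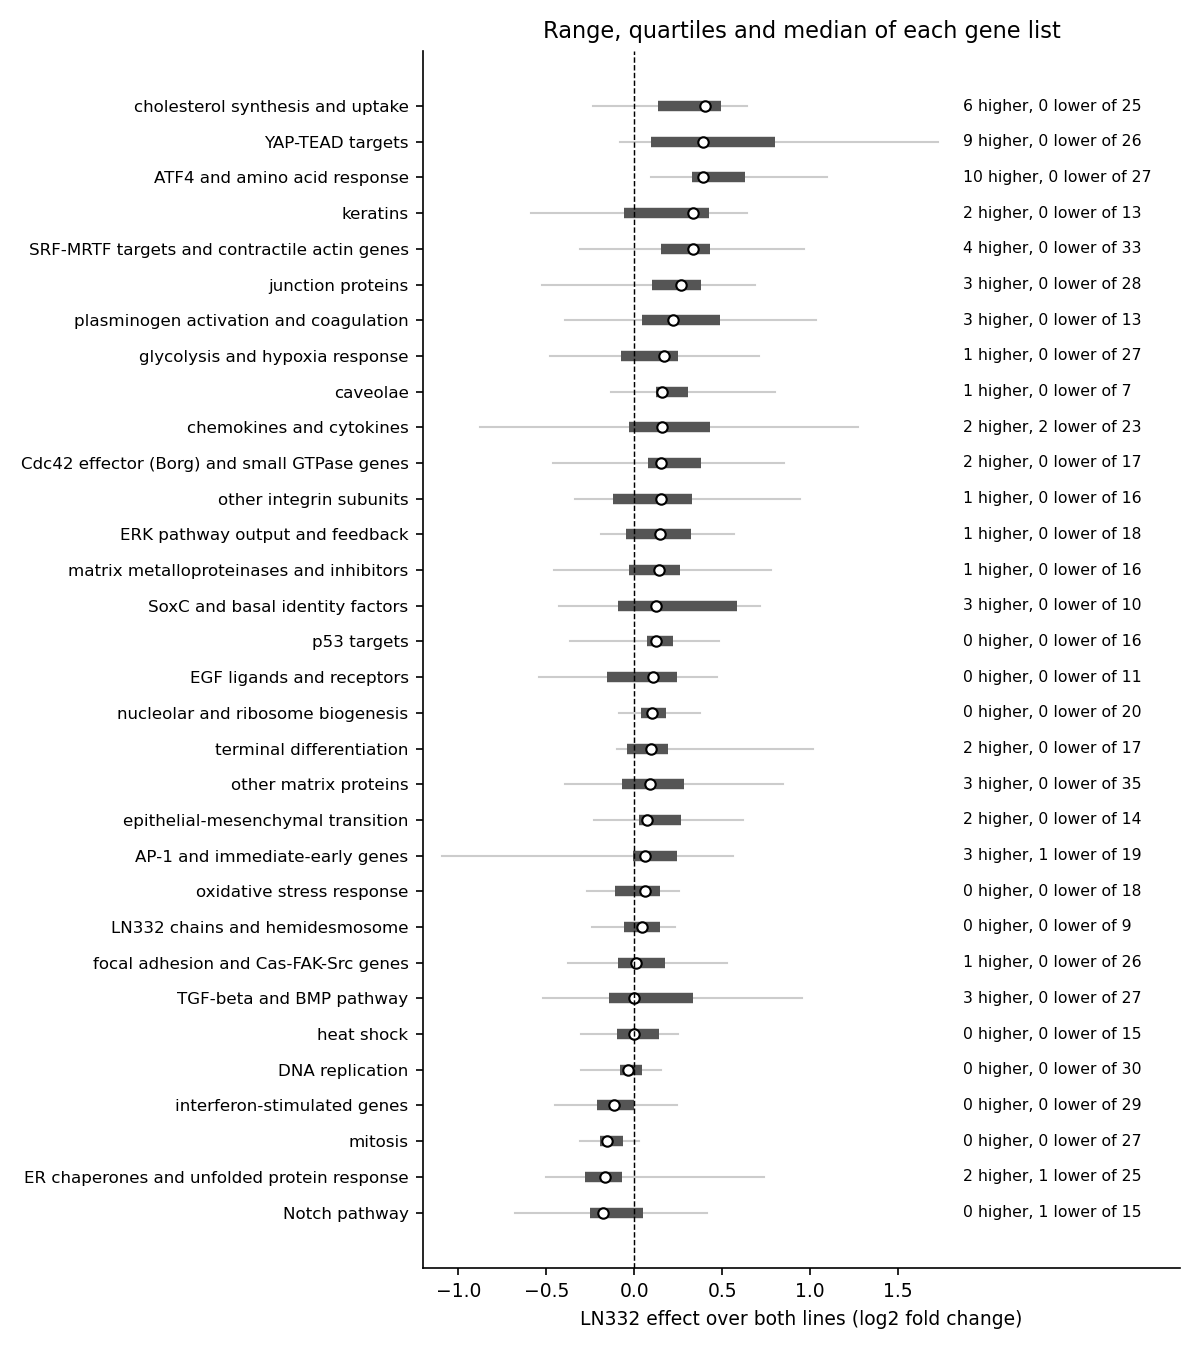
Distribution of the LN332 effect (log2 fold change, x axis) over the measured members of 32 gene lists. Thin lines span the range, thick bars the interquartile range, circles mark the median and the dashed line marks the median of all genes (-0.0025), and cholesterol (0.40), YAP-TEAD (0.39) and ATF4 (0.39) lists stand highest. The lists were chosen with earlier results of these data known.

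The study chose 7 genes for a heat map of these samples, of which 6 are reported here. *Ccn2*, *Dbn1*, *Cdc42ep3*, *Cavin3*, *Sox11* and *Nedd9* were all called higher over both lines, and since they were picked from these libraries their count is no independent evidence of direction.

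Other genes with large changes fell outside the lists. *Morn4* (chromosome 19, 42074939 to 42086376), which encodes a MORN-repeat protein, rose and ranged over 4.81 to 16.7 CPM with vehicle and 17.7 to 30.4 CPM with LN332 in MKα3− cells, and 4.44 to 8.71 and 11.7 to 16.5 CPM in MKα3+ cells, with no overlap and a log2 change of 1.17 (adjusted p = 1.10e-04, SE 0.14). The predicted genes AU018091, D7Ertd443e, Gm19510 and Entrez 100861595 were at 1.17 (SE 0.19), 1.0 (SE 0.27), 0.98 (SE 0.16) and 0.98 (SE 0.13), and D7Ertd443e, at 0.89 without MKα3+ vehicle replicate 4, was then not called. Among genes called lower in all 8 pairs, *Rgs14* and *Neurl1b*, a regulator of G protein signalling and a ubiquitin ligase of Notch ligands, were at -0.91 (SE 0.18) and -0.89 (SE 0.14). *Fat2*, an atypical cadherin of epidermal cells, was at 90.1, 112, 221 and 132 CPM with vehicle and 45.7, 70.2, 193 and 56.8 CPM with LN332 in MKα3− cells, so that replicate 3 stood far above the others while each pair was still lower, and its log2 fold change was -0.78 (SE 0.18). *Txnip*, an arrestin that restrains glucose uptake, was at -0.77 (SE 0.12), *Ell3* at -0.80 (SE 0.16), *Tspyl4* at -0.76 (SE 0.13) and *Fa2h*, a fatty acid hydroxylase of sphingolipids, at -0.76 (SE 0.12). Exons of 22 of the named genes overlap those of a gene on the opposite strand, among them *Txnip*, *Tspyl4*, *Gadd45a*, *Zyx*, *Ppp1r15a*, *Psph*, *Slc6a9*, *Fdft1* and *Il1a*, and whether counting used strand is not stated.

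The response was compared between the lines with the interaction of line and LN332. It called 0 of 14474 genes (0%) by limma-voom, with 483 genes at an unadjusted p under 0.05 and a smallest adjusted p of 0.4495. DESeq2 and limma-voom with sample quality weights each called 1 gene, *Ccl2*. Its log2 fold change was -1.19 (SE 0.09) in MKα3− cells and -0.44 (SE 0.08) in MKα3+ cells, a difference of 0.77 (SE 0.13). Of the 373 genes called over both lines, 370 had the same sign in each line, a count that their selection on the average of the lines favours, and the exceptions were *Slc4a10*, *Bcat1* and *Fgd1*. The change was larger in MKα3− cells for 198 genes and larger in MKα3+ cells for 175. An interaction that misses the threshold does not show that the lines responded alike. *Ccn2* was at 2.01 in MKα3− cells and 1.47 in MKα3+ cells, with an interaction of -0.55 (SE 0.27).

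**Figure D5:**
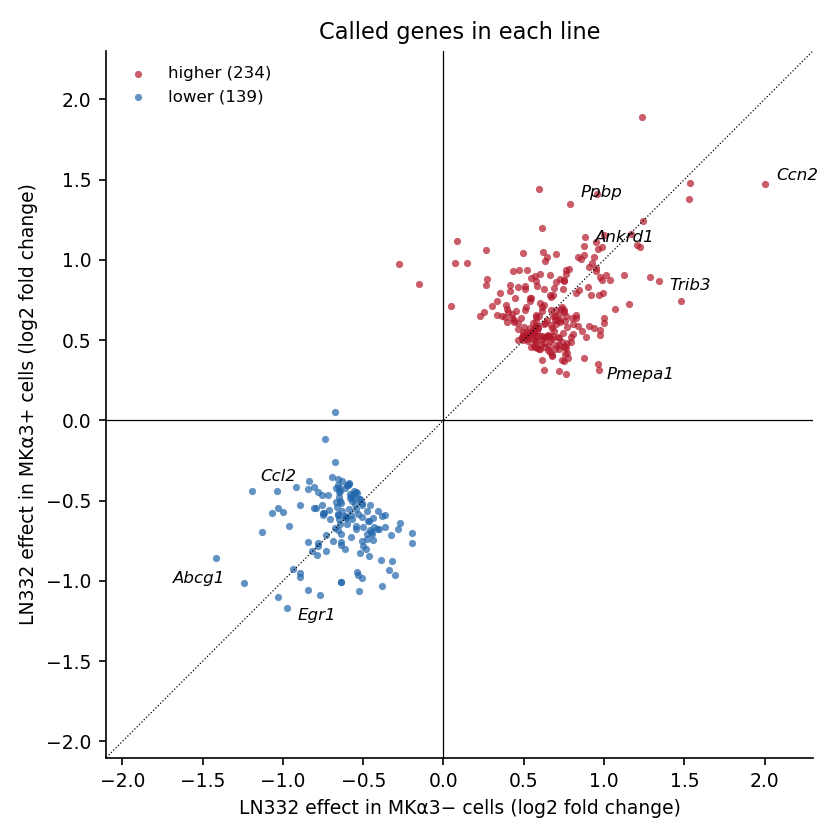
LN332 effect in MKα3+ cells (y axis) against that in MKα3− cells (x axis), both as log2 fold changes from fits within each line, for the 373 genes called over both lines. The dotted line marks equal effects, 370 genes lie in the quadrants of equal sign, and *Ccl2* lies off the line at -1.19 and -0.44.

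The number of called genes depended on how T numbers and lines were used. It was 161 in MKα3− libraries alone (126 higher and 35 lower), 501 in MKα3+ libraries alone (283 higher and 218 lower), 241 without the T number as a block and 217 without the 4 libraries of T2. Of 76 called genes chosen by the naming rule, 31 were not called in MKα3− libraries alone and 14 in MKα3+ libraries alone. Without the T number as a block 21 of the 76 were not called, and 20 of these are reported here, namely *Trib3*, *Ppbp*, *Egr1*, *Rgs14*, *Ccl2*, *Ell3*, *Fat2*, *Txnip*, *Itga2*, *Fhl1*, *Adamts1*, *Tnc*, *Col12a1*, *Cxcl10*, *Ppp1r15a*, *Atf4*, *Slc6a9*, *Mthfd2*, *Fdps* and D7Ertd443e.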

How the data were processed

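Genes were counted in RNA-seq libraries of vehicle-treated and LN332-treated MKα3− and MKα3+ cells, 4 replicates each. The authors made the libraries from poly(A) RNA, aligned the reads to mm10 (Rsubread) and deposited raw featureCounts counts of 14474 genes of the annotation built into that tool. The strand setting is not given in the sources used here. Per the labels, bcl2fastq 2.20 made the reads. Every gene had over 0.5 CPM in at least 6 libraries, so the methods' filter (over 0.5 CPM in 3 libraries) removed 0 genes. Of the genes, 284 have no symbol, and 14072 were matched to GRCm38.p6 coordinates.

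Counts were normalized by TMM (edgeR 4.0.16) and fitted with limma-voom (limma 3.58.1, R 4.3.3) on line, T number and LN332, and again with the interaction of line and LN332. Genes were called at an adjusted p under 0.05 (Benjamini-Hochberg over all genes) and an absolute log2 fold change over 0.5. Library measures were tested by exact sign-flip permutation over 8 pairs (256 patterns, two-sided). CPM, counts relative to library size, were scaled by the TMM factors. Total counts of 21735708 to 29338370 per library set the precision. Replicates of a group differed by more than sampling noise, with a chi-square of at least 5.51 per degree of freedom.

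The members and the 33 gene lists were chosen with earlier results of these data known. Named are the 12 genes with the largest fold change in each direction among called genes that averaged log2 CPM 1 or more and had all 8 pairs in that direction, the genes of the study's heat map, the genes of LN332, α3β1 and α6β4, and up to 4 called members of each list by p. Other list members are named to account for the counts or as values, and were chosen after their values were seen. Of the named genes 4 are not reported here. The scripts were tested on simulated data. Alternatives were DESeq2 1.42.0 and its size factors, edgeR's quasi-likelihood test, library size alone, no filter or at least 10 counts in every library, other blocks, sample quality weights, other minimum folds, a coefficient per group, each line alone, and each library or T number left out.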

Additional observations from a re-analysis of the deposited data

Results flagged for a closer look

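Within the groups of 4 libraries, a library was singled out where its gap to the nearest of the others, divided by the range of the group, was over Dixon's critical value for 4 samples. Of 340 groups tested over the genes reported and 6 library measures, 27 were past it, and chance gives about 1 in 20 (17.0 groups). The causes were not tested. MKα3− LN332 replicate 1 stood apart with 83.9 CPM for *Egr1* (6.79 to 19.5 in the others), 5.28 CPM for *Ell3* (1.03 to 1.62 in the others), 21.8 CPM for *Txnip* (10.6 to 11.3 in the others), 122 CPM for *Atf3* (87.1 to 91.9 in the others), 8.57 CPM for *Cdsn* (17.1 to 18.0 in the others) and 1.42% of counts in *Rn45s*, the ribosomal RNA precursor (0.503% to 0.654% in the others). MKα3− LN332 replicate 3 stood apart with 193 CPM for *Fat2* (45.7 to 70.2 in the others) and 1490 CPM for *Lamb3* (1007 to 1077 in the others). MKα3− vehicle replicate 1 stood apart with 7.54 CPM for *Abcg1* (2.21 to 3.12 in the others), 2.07 CPM for *Adamts1* (3.76 to 4.11 in the others) and 146 CPM for *Ppp1r15a* (53.1 to 67.4 in the others). MKα3− vehicle replicate 2 stood apart with 189 CPM for *Myc* (133 to 142 in the others). MKα3− vehicle replicate 4 stood apart with 226 CPM for *Serpinb2* (133 to 146 in the others), 1.11 CPM for *Sox11* (0.673 to 0.712 in the others), 8.67 CPM for *Itga2* (2.37 to 2.94 in the others) and 241 CPM for *Pmepa1* (147 to 152 in the others). MKα3+ LN332 replicate 1 stood apart with 2.33 CPM for *Ell3* (0.856 to 0.974 in the others), 64.3 CPM for *Cdc42ep3* (51.8 to 53.2 in the others), 272 CPM for *Itga3* (311 to 314 in the others), 542 CPM for *Itgb1* (779.7 to 823 in the others) and 18.2 CPM for *Grhl3* (26.3 to 27.6 in the others). MKα3+ vehicle replicate 1 stood apart with 9.90 CPM for *Fat2* (38.2 to 41.3 in the others), 11.1 CPM for *Fa2h* (14.6 to 15.1 in the others), 92.6 CPM for *Atf3* (60.4 to 65.5 in the others), 12.3 CPM for *Grhl3* (20.1 to 21.2 in the others) and 1.92% of counts in ribosomal protein genes (1.62% to 1.63% in the others). MKα3+ vehicle replicate 2 stood apart with 73.2 CPM for *Cavin3* (100.1 to 103 in the others). The T1 libraries hold 19 of the 27 cases.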

How the results depend on the processing

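Of the 373 genes called, 238 were among the 241 called with no replicate block and 366 among the 419 called with a replicate block of line and number. Deviations from group means correlated by -0.027 to 0.611 between the LN332 and vehicle libraries of the same line and number, with a mean of 0.326 and over 0.1 in 7 of 8 pairs, and by a mean of 0.233 for the same number and -0.073 for different numbers. Libraries of the same number thus deviated together in most pairs but not in all 8, and no label says what the number marks. With no minimum fold change 2060 genes passed, 1051 higher and 1009 lower, and with a minimum of 1 there were 26. MKα3− libraries alone gave 161, of which 114 were shared. Leaving out 1 library gave 293 (without MKα3+ vehicle replicate 4, 283 shared) to 441 (without MKα3− LN332 replicate 1), and leaving out all 4 libraries of a number gave 217 (without T2, 206 shared) to 533 (without T1, 241 higher and 292 lower). edgeR called 357, DESeq2 383, DESeq2 size factors 375, at least 10 counts in every library 344, a coefficient per group 344 and sample quality weights 558 (300 higher and 258 lower). The interaction called 1 gene by DESeq2 and 1 with sample quality weights, and 0 genes whichever library or number was left out. None of the 76 called genes chosen by the naming rule changed sign under these settings, while *Slc4a10*, *Bcat1* and *Fgd1*, named for their signs, did so in 1 line alone. With library size alone the list medians were 0.31 for YAP-TEAD, 0.26 for SRF-MRTF, 0.31 for ATF4 and 0.32 for cholesterol genes, while medians near 0 before fell below it for AP-1 (-0.015), LN332 chain and hemidesmosome (-0.036), epithelial-mesenchymal transition (-0.0032), focal adhesion (-0.070) and oxidative stress genes (-0.017). Leaving out single libraries ended the call of 14 named genes, in 9 of 16 libraries for *Zyx*, 8 for *Pdlim7*, 8 for *Calr*, 7 for *Msmo1*, 5 for *Cldn23*, 4 for *Il1a*, 3 for *Atf3*, 3 for *Myc*, 2 for *Nedd9*, and 2 for *Ppp1r15a* (0.48 without MKα3− LN332 replicate 4 and 0.49 without MKα3+ LN332 replicate 2). It did so in 1 for *Col12a1* (0.48) and *Krt16* (0.46), both without MKα3− LN332 replicate 3, for *Fdps* (0.49 without MKα3− vehicle replicate 3) and for D7Ertd443e (0.89 without MKα3+ vehicle replicate 4). Apart from D7Ertd443e, their log2 fold changes then lay between 0.41 and 0.50 in size. The cause of these shifts was not tested. Low levels limit *Inhba*, *Tslp*, *Has2* and *Stc2* in MKα3− cells and *Muc16* in both lines, where few reads stand behind each value.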

Other observations

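Other called genes were grouped after their values were seen, so their counts carry no test. All 8 pairs moved in a single direction for 187 of the 234 genes called higher and 99 of the 139 called lower. Counts of such genes below stand beside those shares and are no trait of a group. Among genes called higher were 8 secreted ligands (*Pthlh*, *Edn1*, *Edn2*, *Sema3a*, *Sema7a*, *Wnt7a*, *Fgf21* and *Adm2*), at log2 fold changes of 0.54 to 1.08, and 6 of them rose in all 8 pairs. *Pthlh*, parathyroid hormone-related protein, was at 0.81 (SE 0.11) and *Edn1*, endothelin 1, at 0.54 (SE 0.08). The hyaluronan synthase *Has2* was at 1.51 (SE 0.14) (adjusted p = 1.35e-05) with all 8 pairs higher. In MKα3+ cells it was at 1.48 (SE 0.11), with mean levels of 5.53 CPM with vehicle and 15.4 CPM with LN332. In MKα3− cells it was at 1.54 (SE 0.56), at low mean levels of 0.217 and 0.606 CPM, with overlapping groups and no call. *Has2* cannot be told apart without strand from its antisense gene *Has2os*, which was at 0.78 (SE 0.21). The 3 retinoid genes *Rarb*, *Cyp26b1* and *Sdr16c5* were at 0.71 to 1.03, and 5 genes of striated muscle (*Acta1*, *Tnnt2*, *Myl7*, *Casq2* and *Dysf*) at 0.59 to 0.87. *Ptgs2*, cyclooxygenase 2, was at 0.51 (SE 0.08). Of 7 serine protease and serpin genes (*Prss22*, *Prss23*, *Prss27*, *Prss52*, *Tmprss11d*, *Serpinb1a* and *Serpinb7*), all 7 rose in all 8 pairs, at 0.52 to 1.22.

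Genes called lower held 7 interferon and antigen genes (*Irf8*, *Ciita*, *Dhx58*, *Batf2*, *Cxcl9*, *Ifit3b* and *Tnfrsf14*), at -0.63 to -0.51, of which 3 were lower in all 8 pairs. They also held 8 cilium genes (*Kif27*, *Kif17*, *Stk36*, *Cfap74*, *Cc2d2a*, *Ift70b*, *Drc7* and *Mak*), at -1.10 to -0.53 and mean levels of 0.784 to 8.05 CPM, of which 6 were lower in all 8 pairs, and 6 zinc finger genes (*Zfp128*, *Zfp324*, *Zfp354c*, *Zfp563*, *Zfp791* and *Zfp940*), at -0.84 to -0.52, lower in all 8 pairs. With library size alone as the scaling more genes were called lower than higher. The mitochondrial ribosomal RNA *mt-Rnr1*, which lacks a long poly(A) tail, was called lower at -0.72 (SE 0.14) (-1.04 in MKα3− cells and -0.44 in MKα3+ cells). The share of counts from mitochondrial genes, *mt-Rnr1* included, was 1.71% ± 0.545 (SD, n = 8) with LN332 and 1.39% ± 0.241 (SD, n = 8) with vehicle (exact sign-flip permutation test, p = 0.0625).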
